A study of Danio rerio with 6 samples.

Results

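The 7 genes described here are chia.1 (ENSDARG00000100635), chia.2 (ENSDARG00000099185), chia.3 (ENSDARG00000009612), slc13a2 (ENSDARG00000053853), tm4sf4 (ENSDARG00000040747), lgals2b (ENSDARG00000038153) and tcnl (ENSDARG00000068088). They were taken by symbol out of 32268 genes of the zebrafish reference because earlier results of the same nuclei placed them among the genes highest in intestine nuclei. Their height in intestine nuclei is therefore given as a description, with no test. The series holds Visium spatially resolved transcriptomics (SRT) of 3 tissue sections, which were not used here, single-cell RNA-seq (scRNA-seq) of 2 dissociated samples named E and F, and single-nucleus RNA-seq (snRNA-seq) of 1 pooled nuclei sample. All fish were adult casper zebrafish with BRAF-V600E-driven melanoma: mitfa-BRAF(V600E), p53-/- and mitfa-/- animals given mitfa-MITF and mitfa-GFP by the miniCoopR system, so that the oncogene, the rescue gene and GFP all ran from the promoter of mitfa, which is active in melanocytes, and there were no fish without tumors. Heads and tails had been removed before tissue was dissociated. Nuclei were sorted into GFP-positive and GFP-negative fractions, marked with 6 hashtags (3 fish by 2 fractions) and run in 1 droplet reaction. The cells of E and F carried no hashtag, and cells of 2 fish had been loaded together, so neither E nor F was used as a replicate of a condition.

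Chitinases cut chitin, the polymer of crustacean and insect shells and of fungal walls, and the acidic chitinases that chia genes encode are known from the stomach and gut of mammals and fish, where they can digest food. The absorptive enterocyte carries a brush border full of transporters and peptidases, and in zebrafish a distinct kind of enterocyte, rich in lysosomes, takes up whole protein through the endocytic receptors cubilin and Lrp2. In mammals SLC13A2 moves citrate and succinate into enterocytes and kidney tubule cells with sodium, TM4SF4 is a membrane protein with 4 transmembrane stretches known from intestine and liver, and LGALS2 is a galectin, a lectin that binds beta-galactosides, of the digestive tract. The product of tcnl belongs to the carriers of cobalamin (vitamin B12). In the RefSeq table of assembly GRCz12tu chia.1 and chia.2 are neighbours and chia.3 follows after 1 other gene, whereas the files were counted on GRCz10. Reads that fit more than 1 of the chia genes could have been split or dropped, so that their levels relative to each other are uncertain.

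The nuclei library held 115656723 UMIs (unique molecular identifiers, each marking 1 captured RNA molecule), and 12858 nuclei with a median of 2138 UMIs were kept in 22 clusters. Intestine nuclei formed 2 of these clusters with 1010 nuclei together (7.86% of nuclei, 95% Clopper-Pearson interval 7.40 to 8.33), and the share per fish was 7.60%, 8.84% and 8.51% in fish 1, 2 and 3 (mean 8.32% ± 0.642, SD, n = 3). None of the 7 genes served to name clusters, and all 12 intestine markers that did were at least 8-fold higher in the larger cluster than in all other nuclei. The larger cluster (cluster 3, 941 nuclei) is called the main intestine cluster. The smaller cluster (cluster 22, 69 nuclei) was led by lrp2b, ctsl.1, cubn and slc10a2, had 8 of the 12 markers at that fold, and is called the lrp2b cluster. Nuclei are given by their summed UMIs per 1000000 UMIs of the group (CPM), and intervals are exact Poisson 95% intervals, which cover counting error only. Oocyte nuclei held 64.2% of the UMIs of all other nuclei, and E and F gave 1780 and 1002 cells. Nuclei shared 5 barcodes with E and 1 with F, and E and F shared 0.

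In the main intestine cluster lgals2b was the highest of the 7 genes, at 5262 CPM. The chitinase genes followed with 3632 CPM for chia.1 and 3413 CPM for chia.2, and the third, chia.3, stood at 1330 CPM. The cobalamin carrier gene tcnl reached 1870 CPM, tm4sf4 1690 CPM and slc13a2 1583 CPM. Together the 7 genes made up 1.88% of all UMIs of this cluster against 0.0252% of those of all other nuclei. All 7 were at least 8-fold higher there than in all other nuclei, a fold that 5.35% of the 22918 genes with 20 or more UMIs reached. This fold is what the genes were chosen by, so nothing is read from it. CPM is not divided by transcript length, so the order of the 7 genes is an order of captured 3′ ends and not of transcripts per gene length.

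The lrp2b cluster carried only part of the set. The transporter gene slc13a2 was at 1382 CPM and lgals2b at 4818 CPM, close to the main cluster, while tm4sf4 was at 227 CPM. These 3 genes were at least 8-fold higher there than in all nuclei outside the intestine, a fold that 7.57% of the 22918 genes reached. The chitinase genes and tcnl were at the bottom: chia.1 had 4 UMIs (11.7 CPM), chia.2 had 5 UMIs (14.6 CPM), and chia.3 and tcnl had 1 UMI each (2.91 CPM) among all 69 nuclei, whose median depth of 4122 UMIs was above the 3801 UMIs of the main cluster. The ratio of main to lrp2b cluster was 312 for chia.1 (95% interval 122 to 1144), 234 for chia.2 (100.3 to 721), 456 for chia.3 (81.9 to 18032) and 642 for tcnl (115 to 25342). For slc13a2 the ratio was 1.15 (1.04 to 1.26), for lgals2b 1.09 (1.04 to 1.15) and for tm4sf4 7.43 (5.95 to 9.41). These 4 genes with ratios above 100 were the only ones of the 7 past 8-fold, against 0.957% of 7001 genes. That share is of genes with at least 100 UMIs in both clusters together, counted with a floor of 3 UMIs. The ratios given here have no such floor. As the clusters were drawn from the same counts this is a description.

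Genes that mark these kinds of enterocyte in zebrafish moved apart in the same way. All 8 genes of the lysosome-rich enterocyte list were higher in the lrp2b cluster, among them cubn, the cubilin gene, at 3381 against 36.8 CPM, lrp2b at 3850 against 54.2 CPM and ctsbb, a cathepsin gene, at 504 against 8.57 CPM. Of this list lrp2b, cubn, slc10a2 and ctsbb were themselves leading genes of that cluster. The clusters were drawn from the same counts, so these levels are a description. All 7 measured genes of the anterior enterocyte list were higher in the main cluster, among them fabp2, a fatty acid binding protein gene, at 2365 against 216 CPM and fabp1b.1 at 1350 against 8.74 CPM. The peptide transporter gene slc15a1b had 2921 UMIs in the main cluster and 0 in the lrp2b cluster, and mep1b, which encodes a meprin peptidase of the brush border, had 1390 and 0. Some other brush border genes were at like levels in both, such as vil1 (villin) at 1017 and 799 CPM and slc5a1 (the sodium glucose transporter) at 676 and 475 CPM. Of the 11 measured genes of the brush border and uptake list only 5 were higher in the main cluster. The aminopeptidase gene anpepb went the other way, at 1700 CPM in the main and 3005 CPM in the lrp2b cluster. The pair slc13a2 and lgals2b thus lay with the genes at like levels in both clusters, and the chitinase genes with tcnl lay with slc15a1b and mep1b.

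Outside the intestine the levels were low, and free RNA has to be set beside them. The 1573097 barcodes with 1 to 100 UMIs, which hold no nucleus, carried chia.1 at 339 CPM, chia.2 at 242 CPM, chia.3 at 95.4 CPM, slc13a2 at 124 CPM, tm4sf4 at 150 CPM, lgals2b at 423 CPM and tcnl at 119 CPM. For chia.1 none of the 20 clusters outside the intestine exceeded this level, the highest being cluster 8, named skeletal muscle, at 270 CPM. That name is weak, with a mean log2 over the median cluster of 2.74 for the muscle list against 2.36 for exocrine pancreas. Clustering without the 7 genes gave a cluster with the same leading genes the name exocrine pancreas. The other skeletal muscle cluster (cluster 10, mean log2 6.05) had chia.1 at 42.3 CPM. Cluster 8 was also highest for chia.3 (134 CPM) and tcnl (148 CPM), and the exocrine pancreas cluster (cluster 13) was highest for chia.2 at 248 CPM. The highest cluster for slc13a2 and for tm4sf4 was cluster 19, at 214 and 239 CPM, led by atp1a1a.2, muc5.2 and pou2f3. It scored highest for the cholangiocyte (bile duct cell) list (mean log2 3.63, against 2.70 for ionocyte) and met the naming rule. It was left unnamed by an exception for muc5.2 among its leading genes. Other clusterings gave clusters with like leading genes the names cholangiocyte (202 nuclei) and ionocyte (191 nuclei). The highest for lgals2b was the T cell cluster (cluster 2) at 715 CPM. It was led by igl1c3, and its mean log2 was 5.03 for the T cell list and 4.05 for the B cell list. The macrophage cluster (cluster 4) had lyz and npsn among its leading genes, with 4.88 for the macrophage and 4.25 for the neutrophil list. Both may thus hold more than 1 cell type.

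**Figure D1:**
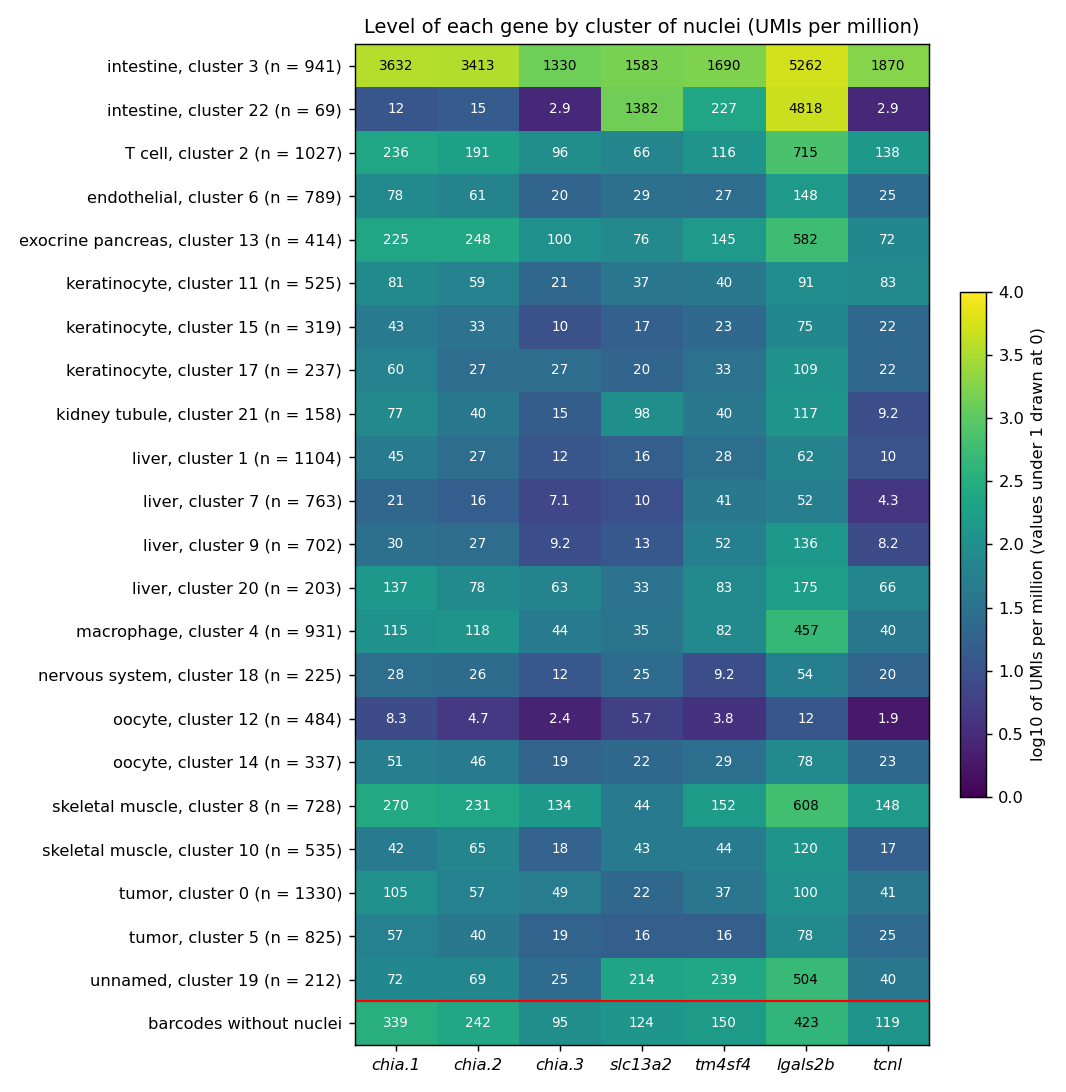
Rows are the 22 clusters of nuclei with their class and number of nuclei, and, under the red line, barcodes without nuclei; columns are the 7 genes, and each cell gives CPM, with the color on a log10 scale. The main intestine cluster is highest for all 7 genes, and the lrp2b cluster (cluster 22) keeps slc13a2 at 1382 and lgals2b at 4818 but has chia.1 at 11.7 CPM.

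To set the clusters beside free RNA, each gene was divided by the sum of chia.1 and chia.2 in every cluster. In barcodes without nuclei lgals2b had 0.727 UMIs per chia.1 and chia.2 UMI (95% interval 0.683 to 0.775) and in the main intestine cluster 0.747 (0.735 to 0.759). This ratio depended on the barcodes taken, since those of 1 to 20 UMIs gave 0.892 (0.827 to 0.962). In 11 of the 20 clusters outside the intestine the interval of lgals2b lay above that of barcodes of 1 to 100 UMIs, and in 7 above that of barcodes of 1 to 20 UMIs, the 4 clusters that follow among them. Cluster 19 stood at 3.56 (2.48 to 5.22), a liver cluster (cluster 9) at 2.37 (2.03 to 2.78), the macrophage cluster at 1.96 (1.75 to 2.20) and the T cell cluster at 1.68 (1.51 to 1.87). As given above, the macrophage and T cell clusters may be mixed. For tm4sf4 the interval was above free RNA in 7 of 20 clusters (4 with barcodes of 1 to 20 UMIs), led by cluster 19 at 1.69 (1.12 to 2.58) and the liver clusters 7 and 9 at 1.101 (0.909 to 1.33) and 0.917 (0.757 to 1.11). For slc13a2 it was above in 5 and below in 3 of 20 (5 and 1 with barcodes of 1 to 20 UMIs, whose ratio was 0.166 against 0.214), with cluster 19 at 1.51 (0.993 to 2.33) and kidney tubule nuclei at 0.842 (0.509 to 1.38). The 5 with barcodes of 1 to 20 UMIs also included skeletal muscle cluster 10, oocyte cluster 12 and nervous system cluster 18. Clusters 10, 12 and 18 held 53, 315 and 16 UMIs of slc13a2.

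The ratio of chia.3 ranged from 0.130 to 0.312 over the same 20 clusters, above the free RNA interval in 4 and below it in 0 with either set of barcodes. That of tcnl ranged from 0.0789 to 0.590, above in 3 and below in 3 (1 and 5 with barcodes of 1 to 20 UMIs), and the highest value came from a keratinocyte cluster (cluster 11) with 85 UMIs of tcnl. The chia.1 and chia.2 counts behind these ratios were small in some clusters, with 39 UMIs in cluster 19 and 38 in kidney tubule nuclei. The ratios were computed for 5 genes in 20 clusters each with no adjustment for their number. Free RNA was pooled over fish, which differed in the divisor. In the main intestine cluster chia.1 and chia.2 were at 5929 and 4768 CPM in fish 1 and 1360 and 2908 CPM in fish 2. There lgals2b was at 5409 and 5393 CPM. A ratio above the pooled free RNA can thus depend on which fish gave the nuclei of a cluster, and this was not tested.

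**Figure D2:**
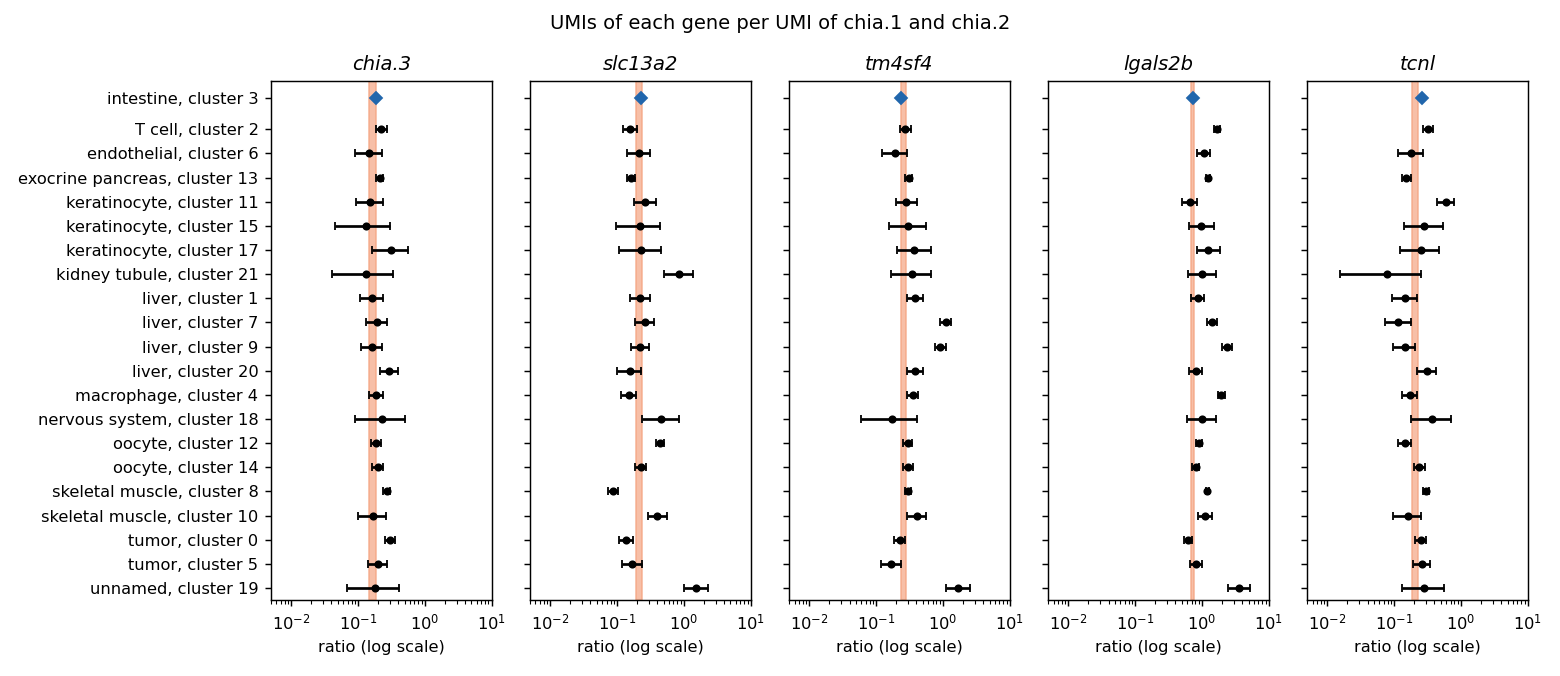
Each panel gives the UMIs of 1 gene per UMI of chia.1 and chia.2 together (log axis) by cluster outside the intestine, with exact 95% intervals; the blue diamond is the main intestine cluster and the orange band is the interval in barcodes of 1 to 100 UMIs. Cluster 19 lies right of the band for slc13a2 (1.51), tm4sf4 (1.69) and lgals2b (3.56), whereas chia.3 stays between 0.130 and 0.312.

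The share of nuclei with a UMI gave the same order of groups when each nucleus was thinned to 500 UMIs. Among main intestine nuclei 75.6% had a UMI of lgals2b, 57.0% of chia.2, 55.7% of chia.1, 50.7% of tm4sf4, 46.2% of slc13a2, 30.6% of chia.3 and 24.2% of tcnl. Tumor nuclei, taken as nuclei that should lack these genes, had 2.97%, 1.95%, 3.02%, 1.11%, 0.789%, 1.44% and 1.16%. Without thinning the main intestine shares were 97.0%, 79.3%, 76.6%, 88.2%, 76.6%, 53.2% and 47.4% in the same order of genes, at a median of 3801 UMIs against 2275 UMIs in tumor nuclei. For lgals2b 17.6% of thinned T cell nuclei and 11.1% of macrophage nuclei had a UMI, and cluster 19 had 14.2% for lgals2b, 13.7% for tm4sf4 and 5.19% for slc13a2 against 4.25% for chia.1.

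Within the main intestine cluster the 7 genes were unevenly spread over nuclei. The median nucleus had 3734 CPM of lgals2b (quartiles 1908 and 5972), 1529 CPM of tm4sf4 (642 and 2370) and 1972 CPM of chia.1 (199 and 5551). For tcnl the median was 0, the upper quartile 1110 CPM and the highest nucleus 46296 CPM, and the 10 nuclei with the most UMIs held 26.7% of all tcnl UMIs, against 5.60% for slc13a2. Of 778 nuclei thinned to 2000 UMIs, 47.0% had at least 6 of the 7 genes and 0.257% had none. Among 1252 tumor nuclei at that depth 0.240% had at least 6 and 76.4% had none.

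Across those thinned nuclei the counts of chia.2 and slc13a2 were positively correlated, with a Spearman rho of 0.37, 0.66 and 0.68 in fish 1, 2 and 3 (227, 192 and 213 nuclei). The rho of chia.1 with chia.2 was 0.42, 0.51 and 0.46, and that of chia.1 with tcnl 0.63, 0.25 and 0.48. Between lgals2b and slc13a2 it was -0.23, -0.31 and -0.21, and between chia.2 and tcnl 0.04, -0.03 and -0.03. These are descriptions over nuclei of 1 library at equal depth, with no test.

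Intestine nuclei were re-clustered without the 7 genes into 9 subclusters, to which the fish gave unequal numbers of nuclei, so that levels summed over fish mix both. Subcluster 0 (172 nuclei, led by dgat2, a triglyceride synthesis gene) had chia.1 at 6991 CPM, chia.2 at 6092 CPM, chia.3 at 3725 CPM and slc13a2 at 3059 CPM. Of its nuclei 141 came from fish 1, 5 from fish 2 and 2 from fish 3. Within fish 1 it was not the highest for chia.1 (7128 CPM against 8706 CPM in subcluster 3) or chia.3 (3851 CPM against 3909 CPM in subcluster 4), and within fish 3 chia.2 was at 6069 CPM in subcluster 2 against 2189 CPM. Subcluster 2 (157 nuclei, 6, 59 and 62 from fish 1, 2 and 3), the next highest for that list, had chia.2 at 5290 CPM and slc13a2 at 2911 CPM but tcnl at 140 CPM. Subcluster 3 (143 nuclei) had chia.1 at 5035 CPM and tcnl at 3607 CPM. Its tcnl level was 14076, 1954 and 2759 CPM in fish 1, 2 and 3 (17, 26 and 76 nuclei), and in fish 3 subcluster 1 was higher at 3654 CPM.

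Other subclusters carried different parts of the set. Subcluster 6 (92 nuclei), highest for the best4 cell list (mean log2 2.98 over the median subcluster), had tcnl at 2315 CPM and lgals2b at 4727 CPM with chia.1 at 590, chia.2 at 366 and slc13a2 at 214 CPM. Subcluster 7 (41 nuclei), led by SPDEF and agr2, genes of secretory goblet cells, had the highest tm4sf4 level (2858 CPM) and lgals2b at 7354 CPM, with slc13a2 at 112 CPM. Subcluster 1 (163 nuclei, led by fabp6, agr2 and OLFM4) had the highest lgals2b level, 8986 CPM. Subcluster 8 (19 nuclei), led by the hormone gene pyyb and by trpa1b, had lgals2b at 2927 and tm4sf4 at 1780 CPM.

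Subcluster 5 (110 nuclei, 67 of them from the lrp2b cluster) was led by cubn and lrp2b and had the lysosome-rich enterocyte list at a mean log2 of 5.19. Its level was 14.2 CPM for chia.1, 6.09 CPM for chia.3 and 4.06 CPM for tcnl, but 455 CPM for chia.2, 1344 CPM for slc13a2 and 4688 CPM for lgals2b. Subcluster 4 (113 nuclei) was led by aqp12 and by yolk protein genes made in liver (vtg3, vtg6), and whether its nuclei carried RNA of other cells was not tested. From the lowest to the highest subcluster lgals2b spanned 3.26-fold, tm4sf4 6.17-fold, chia.2 16.7-fold and slc13a2 27.3-fold. The span was 492-fold for chia.1, 611.5-fold for chia.3 and 888-fold for tcnl. In subcluster 5, where chia.1, chia.3 and tcnl were lowest, they had 7, 3 and 2 UMIs, so their spans are uncertain.

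**Figure D3:**
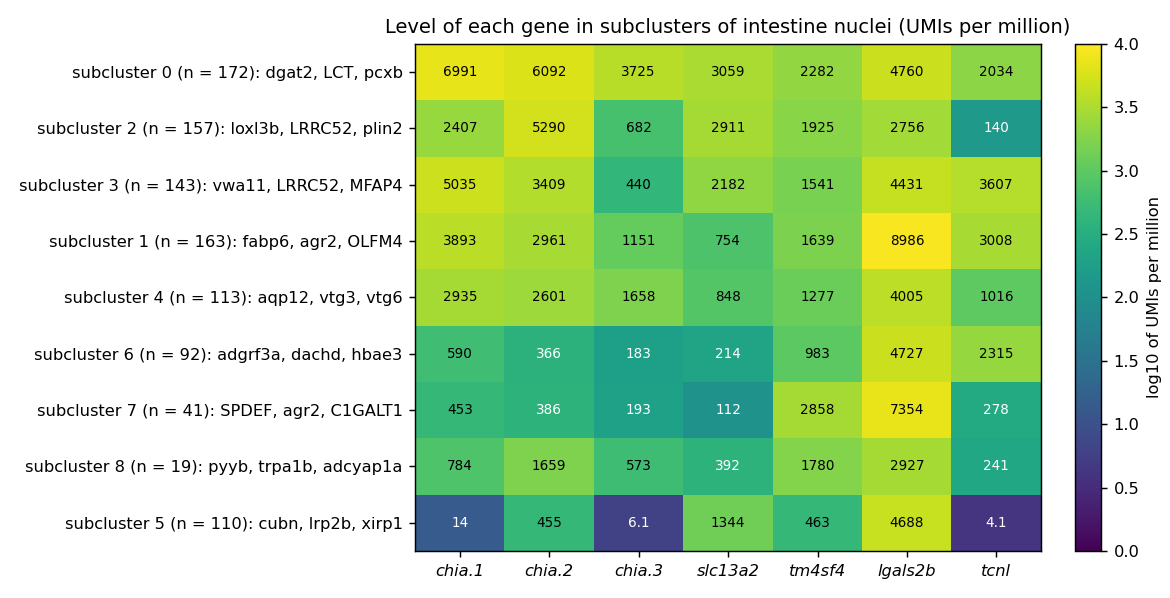
Rows are the 9 subclusters of intestine nuclei with their number of nuclei and leading genes, columns are the 7 genes, and each cell gives CPM with the color on a log10 scale. Subcluster 5 has 14.2 CPM of chia.1 and 4.06 CPM of tcnl beside 4688 CPM of lgals2b, and subclusters 6 and 7 have slc13a2 at 214 and 112 CPM.

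The 3 fish differed most in chia.3. In the main intestine cluster fish 1 had 3535 CPM in GFP-positive and 1866 CPM in GFP-negative nuclei, fish 2 had 137 and 115 CPM, and fish 3 had 731 and 578 CPM. Both fractions of fish 1 lay above both of fish 3, and these above both of fish 2. In this cluster 25 of 5314 genes (0.47%) were at least 4-fold higher in fish 1 than in fish 2 in both fractions, a fold set after the values were seen. Of the 7 genes chia.3 was among them, at 16.2-fold in the fraction with the smaller and 25.8-fold in the one with the larger difference, and chia.1 at 3.88-fold and tcnl at 3.40-fold fell short in their fraction with the smaller difference. From fish 3 to fish 2 chia.3 again passed, at 5.03-fold and 5.33-fold, with 10 genes (0.188%) past the same fold. No member passed it from fish 1 to fish 3 (0.395% of genes) or in the reverse directions, where 0.282% (fish 2 over fish 1), 0.32% (fish 3 over fish 1) and 0.395% (fish 2 over fish 3) of genes did.

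The difference between fish 1 and fish 2 was also seen in some subclusters taken alone. In subcluster 1 chia.3 was at 3151 CPM in 30 nuclei of fish 1 and 129 CPM in 33 nuclei of fish 2, and in subcluster 4 at 3909 and 35.3 CPM (28 and 29 nuclei). In subcluster 3 the values were 688 and 193 CPM (17 and 26 nuclei). In subcluster 5, with chia.3 at 6.09 CPM, fish 1 had 0 UMIs in 18 nuclei and fish 2 had 1 UMI in 48 nuclei. After thinning to 500 UMIs 59.0% of main intestine nuclei of fish 1 had a UMI of chia.3, against 5.74% in fish 2 and 22.1% in fish 3. In nuclei outside the intestine chia.3 was at 35.1, 3.23 and 20.8 CPM in fish 1, 2 and 3. Fish 2 was lowest there for all 7 genes, also for lgals2b at 81.3, 64.5 and 186 CPM. Oocyte nuclei held 77.5% of the UMIs of the GFP-positive hashtag of fish 2 and 7.29% of those of fish 3. Their part in the order outside the intestine was not tested. Each fish is 1 animal and its fractions are not separate animals, so these differences have no test.

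For chia.1 and tcnl fish 2 was also lowest. Summed over both fractions chia.1 was at 5929, 1360 and 3895 CPM and tcnl at 2904, 687 and 1880 CPM in fish 1, 2 and 3. In fish 2 10 nuclei held 90.2% of the tcnl UMIs, so that this level rests on few nuclei. The levels of lgals2b were 5409, 5393 and 5129 CPM, those of tm4sf4 2132, 1710 and 1584 CPM, those of chia.2 4768, 2908 and 3392 CPM and those of slc13a2 2027, 1122 and 1964 CPM. The order of the fish was thus wide apart for chia.3, chia.1 and tcnl and narrow for lgals2b.

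**Figure D4:**
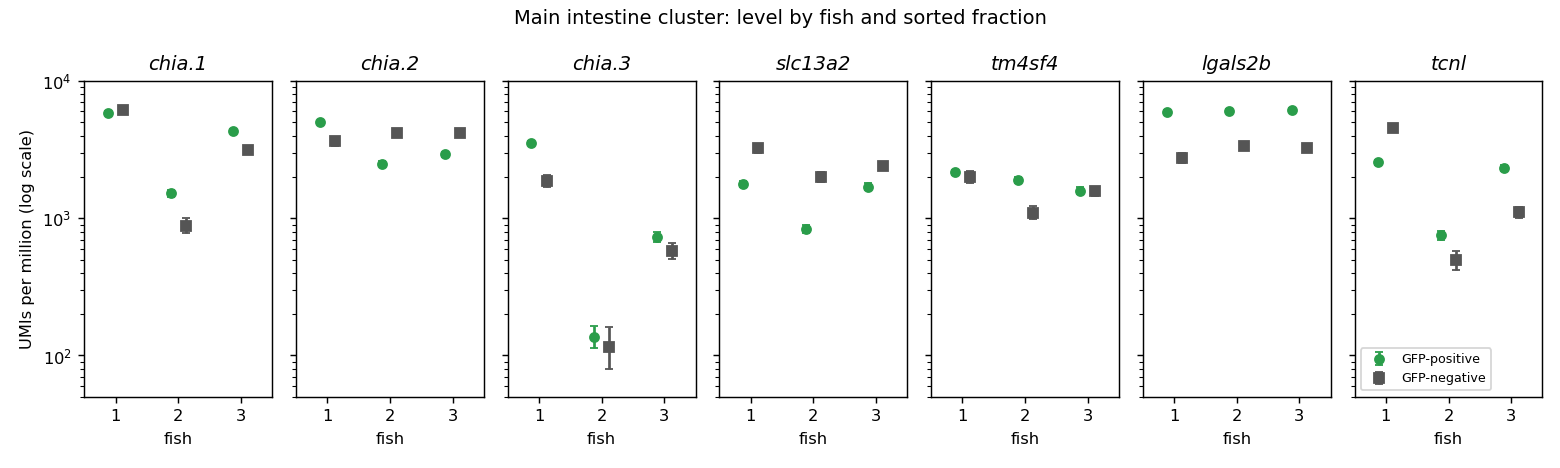
Each panel gives 1 gene in the main intestine cluster, with CPM on a log axis by fish and sorted fraction (green circles GFP-positive, grey squares GFP-negative, bars exact Poisson 95% intervals, hidden behind most symbols). The panel of chia.3 falls from 3535 in fish 1 to 137 in fish 2, whereas lgals2b lies between 5967 and 6195 in GFP-positive and between 2770 and 3339 in GFP-negative nuclei.

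Intestine nuclei were found in both sorted fractions, 475 in the GFP-positive and 299 in the GFP-negative hashtags, although GFP ran from the mitfa promoter. Their mitfa level was 13.7 CPM against 282 CPM in tumor nuclei, and the human BRAF transgene was at 136 CPM against 1236 CPM in tumor nuclei and 167 CPM in T cell nuclei. By fraction mitfa was at 9.06 CPM in GFP-positive and 20.5 CPM in GFP-negative intestine nuclei (25 and 21 UMIs). The BRAF transgene was at 131 and 99.7 CPM in these fractions. Over all tagged nuclei summed per fish and fraction, none of 17448 genes passed an adjusted p of 0.05 in edgeR's quasi-likelihood test (0% called in each direction, 5336 genes at an unadjusted p under 0.05), and none of the 7 genes did. Intestine nuclei were 10.3%, 9.70% and 17.9% of GFP-positive and 4.55%, 7.91% and 5.18% of GFP-negative nuclei, and in such sums fewer intestine nuclei and less RNA per nucleus cannot be told apart. With the fish as a block 1351 genes (7.74%) were called higher and 138 (0.791%) lower in GFP-negative nuclei, and none of the 7 genes among them. DESeq2 called 1190 genes higher (6.84%) and 2121 lower (12.2%), and again none of the 7. Nor was any of the 7 called in the blocked fit on library sizes alone, with 18.3% of genes higher and 0.0229% lower. The share of UMIs from oocyte nuclei ranged from 7.29% to 77.5% between hashtags, and with oocyte nuclei left out tm4sf4 was called lower in GFP-negative nuclei (log2 fold change -1.79, SE 0.282, edgeR adjusted p 0.0344), where 0.177% of genes were called higher and 1.29% lower.

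Within intestine nuclei, a comparison added after the values were seen, lgals2b was lower in the GFP-negative fraction. Its level was 5975, 6076 and 6362 CPM in GFP-positive and 2745, 3004 and 3362 CPM in GFP-negative intestine nuclei of fish 1, 2 and 3. Fish numbers pair the hashtags, since both fractions come from the same animal, and with the fish as a block lgals2b was called lower (log2 fold change -1.37, SE 0.249, edgeR adjusted p 0.00415). Without the block the value was -1.37 (SE 0.233, adjusted p 0.0661) and 0 of 7972 genes were called, with 1464 at an unadjusted p under 0.05. The blocked fit called 290 genes higher (3.64%) and 780 lower (9.78%). The scaling mattered: with library sizes alone instead of TMM factors the median of all genes shifted to 0.392 in the blocked fit, and lgals2b was then at -0.99 (SE 0.179, adjusted p 0.00319).

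The calls of other members depended on the scaling. With TMM factors the blocked fit also called chia.3 (-0.95, SE 0.256, adjusted p 0.0228) and chia.1 (-0.81, SE 0.255, adjusted p 0.0466) lower in GFP-negative intestine nuclei, so that 3 of 7 genes were called against the 9.78% of all genes called lower. With library sizes alone their adjusted p was 0.0623 and 0.124, and slc13a2 was called higher instead (0.81, SE 0.194, adjusted p 0.00793), where 454 of all genes were called lower and 1674 higher (5.69% and 21%). The level of slc13a2 was 1757, 880 and 1717 CPM in GFP-positive and 3087, 1845 and 2389 CPM in GFP-negative intestine nuclei. These CPM rest on library sizes alone, on which the median log2 fold change of all genes was itself 0.392 in the blocked fit. With TMM factors its blocked value was 0.43 (SE 0.227, adjusted p 0.212). None of chia.2, tm4sf4 and tcnl was called in either blocked fit. The other 3 settings that made calls without the block called lgals2b lower as well: DESeq2 (adjusted p 0.00029, 3.96% of genes lower and 0.188% higher), no filter on low counts (adjusted p 4.934e-05, 2.67% lower and 0.307% higher, chia.3 also called) and a hashtag limit of 3 times the median (adjusted p 0.0495, 1.36% lower and 0.0607% higher). With no filter the SE of all 7 genes lay between 0.281 and 0.297. That of chia.3 was 0.297, against 1.12 with the filter and no block. The calls with no filter thus do not measure the spread of chia.3 or lgals2b alone.

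The lower lgals2b level was seen in 9 of 9 subclusters. The pairs ran from 3226 CPM in GFP-positive against 2323 CPM in GFP-negative nuclei of subcluster 2 to 5055 against 1746 CPM in subcluster 4. The last value rests on 8 GFP-negative nuclei. The level of slc13a2 was higher in the GFP-negative nuclei of 8 of 9. These CPM rest on library sizes, on which the median gene was itself higher in the GFP-negative fraction. They are summed over fish, and like counts over all genes were not made. Subclusters of the same 3 fish are not replicates. Outside the intestine lgals2b was at 76.5, 59.5 and 195 CPM in GFP-positive and 109, 122 and 182 CPM in GFP-negative nuclei. These sums include oocyte nuclei, which held 61.7%, 77.5% and 7.29% of the UMIs of the GFP-positive hashtags. In the GFP-negative hashtags they held 7.99%, 27.4% and 11.4%, so the values outside cannot be read as a contrast to the intestine. The fractions also differed in depth and makeup, with a median of 4039 to 6168 UMIs in GFP-positive and 3034 to 3238 UMIs in GFP-negative intestine nuclei, and subcluster 1, with lgals2b at 8986 CPM, made up 18.1% of the former and 5.69% of the latter. Subcluster 4 made up 12% and 2.68%, and subcluster 6 5.05% and 18.1%. The part of depth in these differences was not tested.

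**Figure D5:**
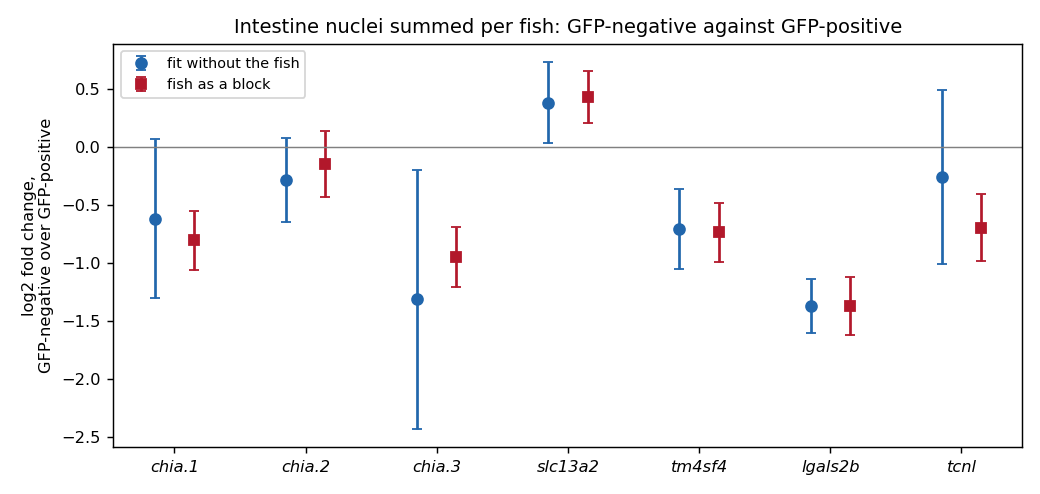
Log2 fold change of each gene between GFP-negative and GFP-positive intestine nuclei, summed per fish (3 fish), from edgeR with TMM factors; points are estimates and bars are 1 SE, blue without and red with the fish as a block. The value of lgals2b is -1.37 in both fits, and slc13a2 lies above 0 in both.

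The dissociated cells held little of the set. In E (33172725 UMIs in 1780 cells) chia.1, chia.2 and slc13a2 had 0 UMIs, which allows up to 0.0904 CPM (3 counts), tm4sf4 and tcnl had 1 UMI each, chia.3 had 8 and lgals2b had 25, of which 17 lay in 3 cells of the macrophage cluster. In F (14280302 UMIs in 1002 cells) chia.1 and chia.2 had 1 UMI each, tcnl 0, slc13a2 11 and chia.3 13 UMIs. The exceptions were tm4sf4 with 316 UMIs (22.1 CPM, 95% interval 19.8 to 24.7) and lgals2b with 368 UMIs (25.8 CPM, 23.2 to 28.5), each in 17 cells.

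In F most of these transcripts sat in few cells that also carried epcam, an epithelial adhesion gene. The liver cluster of cells held 184 UMIs of tm4sf4 in 7 cells. The exocrine pancreas cluster held 114 UMIs of tm4sf4 and 249 of lgals2b, each in 4 cells. Its leading genes were prss59.1, ctrb1 and try but also ddx4 and tuba7l, and tuba7l led the spermatid cluster of cells as well. That cluster may thus hold more than 1 cell type. Its cells with 191, 44 and 13 UMIs of lgals2b had 19, 26 and 4 UMIs of the intestine markers. A cell of the liver cluster with 87 UMIs of tm4sf4 had 197 UMIs of epcam and 2 of the intestine markers. The 13 cells with at least 20 UMIs of epcam held 288 UMIs of tm4sf4 and 260 of lgals2b, 64 UMIs of the 12 intestine markers and 0 UMIs of the 3 chitinase genes and tcnl. The most in 1 cell was 191 UMIs of lgals2b, and 87 UMIs of tm4sf4 were found in each of 2 cells. Of the other lgals2b UMIs 77 lay in 7 cells of the macrophage cluster, with 65 in 1 cell. No cluster of cells met the rule for intestine, so the chitinase genes had no intestine cluster in E or F to be compared in. Single cells of F did carry intestine markers, such as a cell of a tumor cluster with 2434 UMIs. This cell had 23 UMIs of lgals2b, 11 of the markers and 0 of epcam and the chitinase genes. Whether such cells were intestine cells was not tested.

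Relatives of the 7 genes are counted here by the same 8-fold limit over other nuclei, which 5.35% of all genes passed in the main intestine cluster. Of 4 other measured genes of the chitinase and chitin list 1 passed, chs1, a chitin synthase gene (441 against 6.15 CPM). The chitinase gene chia.6 was at 151 CPM in intestine and 108 CPM in liver nuclei, and chia.4 was highest in oocyte nuclei at 552 CPM with 27.6 CPM in the main intestine cluster. Among 4 other SLC13 genes 1 passed, slc13a1, a sulfate transporter gene, at 37.8 against 1.78 CPM. Its highest class was kidney tubule nuclei (332 CPM), followed by intestine nuclei (35.3 CPM), slc13a3 was at 2702 CPM in kidney tubule nuclei, and slc13a5a, a citrate transporter gene, was highest in liver nuclei at 224 CPM. Of 2 other TM4SF genes 1 passed, tm4sf5, which was at 283 CPM in the main intestine cluster and 8.27 CPM outside, and tm4sf18 was highest in tumor nuclei at 79.1 CPM.

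Of 9 other galectin genes 2 passed 8-fold in the main intestine cluster, against the 5.35% of all genes, lgals9l1 (67.5 against 5.33 CPM) and lgals9l3 (133 against 11.4 CPM). The near relative lgals2a was at 14.0 CPM there, below its 19.6 CPM in other nuclei, and was highest in macrophage and tumor nuclei, each at 135 CPM. Of 9 other cobalamin genes 1 passed 8-fold in the main cluster, amn, whose product anchors cubilin, at 9.20 against 0.395 CPM, and it was higher still in the lrp2b cluster at 169 CPM. The plasma carrier gene tcn2 was highest in liver nuclei at 168 CPM. Of 11 brush border and uptake genes 9 passed 8-fold in the main cluster, with a median log2 ratio of 6.15 against -0.15 over all genes.

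Across 39 sums of nuclei class by fish, the genes most like each member in log2(CPM + 1) are given as a description over sums that share 1 library, and the likeness includes the height in intestine nuclei by which the members were chosen. For chia.1 they were cd36 (Pearson r 0.90), a fatty acid uptake gene, slc15a1a (0.85) and apoa4b.2 (0.84). For chia.2 they were fabp2 (0.94), the aminopeptidase gene anpepa (0.90) and apoea (0.89), and for chia.3 mep1b (0.86), cd36 (0.81) and an LCT (lactase) gene (0.79). For lgals2b they were fabp2 (0.92), anpepb (0.91) and apoea (0.90), and for tm4sf4 fabp2 (0.87), anpepb (0.85) and its relative tm4sf5 (0.85). For slc13a2 they were sqrdl (0.83), anpepb (0.81) and gpa33 (0.79), and for tcnl krt92 (0.85), si:ch211-214p16.3 (0.85) and cuzd1.2 (0.84). Among the 7 genes the closest pair was lgals2b with tm4sf4 (0.92), and chia.2 with slc13a2, close within main intestine nuclei, stood at 0.67 here.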

How the data were processed

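The deposited matrices hold raw UMI counts per gene and barcode, made by the authors with Cell Ranger (3.1.0 and 5.0.1 in the submitters' processing notes, build GRCz10); the nuclei matrix lists every barcode, and those of E and F list called cells. Nuclei with at least 500 UMIs, 200 genes and at most 20% mitochondrial UMIs were kept (13380). Of these, 259 were called doublets (scrublet in scanpy 1.11.5, expected rate 0.06) and 263 in an erythrocyte cluster were left out. Clustering used Seurat 5.3.0 (SCTransform, 3000 features, 15 components, resolution 0.8), and clusters were named from marker lists, with at least 1 marker required among a cluster's top 200 genes, a limit set after the clusters were seen. By a further exception, a cluster that best fit the cholangiocyte list but had muc5.2 among its leading genes was left unnamed. A nucleus took the hashtag above 2 times its median when only 1 was (9361 of 12858; 2057 had none and 1440 several). Sums per fish and fraction were tested by the quasi-likelihood method of edgeR 4.0.16 after TMM scaling and its default filter on low counts, with p-values adjusted by Benjamini-Hochberg over every gene tested; DESeq2 1.42.0 was an alternative. The SE is the size of the log2 fold change over the square root of the test's F. Deviations from the fraction means correlated within fish at 0.389, 0.649 and 0.444 over all nuclei and at 0.478, 0.42 and 0.261 over intestine nuclei. The fits were also run on simulated data, of which no outcome is given here, so nothing is read from that run. P-values rest on the spread between 3 fish of 1 pooled library, which the fits share in part across genes, so they do not measure the spread of each gene alone.

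The 7 genes, the gene lists and the tests were chosen with earlier results of these data known. Named genes are the 7 members, the 3 genes most like each by Pearson r among genes with at least 100 UMIs, and genes of the family and intestinal cell lists. Other genes named as leading a cluster came from its own ranking. Promoter motifs and sequences were not analysed here. The gene tcnl is named tcnba in another table of gene names. A gene of the brush border list is not reported here by name.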

Additional observations from a re-analysis of the deposited data

How the results depend on the processing

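The log2 ratio of intestine to other nuclei stayed above 0 for all 7 genes under every alternative run but moved by more than the spread between fish for all 7 genes under 3 of them and for slc13a2 also without fish 3. In the order chia.1, chia.2, chia.3, slc13a2, tm4sf4, lgals2b and tcnl it was 4.03, 4.57, 4.44, 3.803, 3.98, 4.23 and 4.35 when intestine nuclei were those with at least 3 UMIs of the intestine markers, 5.1, 5.25, 4.90, 5.66, 4.62, 4.51 and 5.34 with oocyte nuclei left out (chosen after seeing the data), and 5.07, 5.47, 4.91, 5.87, 4.83, 4.38 and 5.34 as a ratio of mean CPM per nucleus. Leaving out 1 fish gave 6.80 to 7.07 for slc13a2, the higher without fish 3. The share of intestine nuclei was 8.91% among nuclei with at least 1000 UMIs, 28.8% by marker UMIs, and 8.03% to 8.66% with 1 fish left out. The share of intestine nuclei with a UMI was 61.2%, 66.7% and 89.7% for slc13a2, tm4sf4 and lgals2b after thinning to 1000 UMIs, and without thinning 77.6%, 84.6% and 97.0%, with 74.4% for chia.2 and 44.3% for tcnl. In barcodes of 1 to 20 UMIs chia.1 was at 318.7, slc13a2 at 92.7, lgals2b at 499.1 and tcnl at 137.5 CPM, and against these barcodes (chosen after seeing the data) the clusters with a ratio above free RNA were 7 in place of 11 for lgals2b, 4 in place of 7 for tm4sf4 and 1 in place of 3 for tcnl.

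Between the sorted fractions of all nuclei 1 gene, tm4sf4 (-1.79), was called with oocyte nuclei left out and 0 otherwise. Values that were not called changed sign: slc13a2 was at 0.34 with the fish as a replicate block, 0.18 on library sizes without TMM factors and 0.96 with both, and chia.2 and tcnl were at 0.39 and 0.0505 with both. Leaving out 1 fish gave -1.13 to 0.10 for chia.2, -0.78 to 0.94 for slc13a2 and -2.32 to 0.25 for tcnl, each above 0 without fish 3. Within intestine nuclei the number of the 7 genes called was 0 in the fit as planned for all nuclei, 3 with the fish as a block, 2 with the block on library sizes, 2 with no filter, 1 with DESeq2 and 1 with the stricter hashtag limit, and 0 with any 1 fish left out of the fit without the block. The blocked fits were not run with a fish left out. There chia.2 was at 0.15 on library sizes and 0.23 with the block on library sizes, and tcnl at 0.13 on library sizes. Leaving out 1 fish there gave -0.63 to 0.29 for chia.2, above 0 without fish 1, and -1.21 to 0.0205 for tcnl, above 0 without fish 3. The scaling and intestine alternatives were chosen after seeing the data. The cause of these changes was not tested. With 3 fish in 1 library, depth and makeup of the fractions cannot be told apart from the sort.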
